A study of Sus scrofa with 15 samples.

Results

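The genes described here were 57 genes of messenger RNA decay, measured by RNA sequencing in pig oocytes at the germinal vesicle (GV) stage and after *in vitro* maturation (IVM). They were chosen by symbol for their known function and grouped by the step they serve, and each had a row among the 22516 genes of the deposited gene table. There were 7 recruiters of deadenylases, 11 subunits of the CCR4-NOT complex, 3 other deadenylases, 18 genes of decapping and 5′ to 3′ decay, 11 exosome genes and 7 genes of nonsense-mediated decay. GV oocytes came straight from fresh sow follicles and were not cultured. The MII group had matured within its cumulus complex for 44 h and showed a first polar body, and the ‘damaged’ group had the same 44 h of culture but showed none. The time of 44 h is that of the labels, and the written methods give a short range that ends there. Each library pooled 15 oocytes, so that a level describes the pool and not single cells, and a change in all oocytes of a pool cannot be told apart from a larger change in some of them. The labels of all 15 libraries name pig oocytes with no treatment other than the culture, with 5 libraries per group. Per the methods, the culture medium held gonadotrophins (PMSG and hCG), EGF, insulin, cysteamine and sow follicular fluid. GV oocytes were not exposed to this medium, so that its effect and that of stage cannot be told apart. The study removed a GV library of low depth without naming it. The GV library with the fewest counts was taken to be that library (replicate 3, 6400410 counts) and left out, which gave 4 GV, 5 MII and 5 ‘damaged’ libraries of 11961200 to 23568600 counts, and MII and ‘damaged’ libraries were also joined as ‘MIX’ (n = 10).

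The tail of adenosines at the 3′ end of an mRNA protects it and supports its translation. Decay usually starts when recruiters bring a deadenylase, mostly the CCR4-NOT complex, to the mRNA. The shortened mRNA then loses its cap to DCP2 and is digested from the 5′ end by XRN1, or it is digested from the 3′ end by the RNA exosome. Nonsense-mediated decay is a separate surveillance pathway for mRNAs whose translation ends too early. A fully grown oocyte makes almost no new RNA, and it stores mRNAs that are recruited, tailed or removed in turn during meiotic maturation. cDNA was primed on poly(A), so that the amount of an mRNA and the state of its tail cannot be told apart in these counts.

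Before any comparison, the libraries were checked. In 7 of the 15 columns of the deposited gene table the total was that of another library's transcript file, and these columns were not used. The gene counts were computed from the transcript files, whose labels name the library, and they matched the other 8 columns. Which naming is right for the 7 was not tested, so that MII and ‘damaged’ are told apart here only by the names of the transcript files. All 57 genes were recovered. Of 12 oocyte markers, 11 had counts and summed to 9940 to 11498 CPM in GV, 4861 to 7220 in MII and 5663 to 7740 in ‘damaged’ libraries. Of 18 cumulus and granulosa markers, 12 had counts, and their sums were 23.5 to 28.0, 22.4 to 32.3 and 25.9 to 33.1 CPM. *FST* and *GREM1* made up most of these sums and moved with the groups, *FST* from 6.48 to 8.74 CPM in GV to 15.5 to 24.95 CPM in MIX and *GREM1* from 12.1 to 18.6 CPM to 4.03 to 6.75 CPM, and their part in the results was not tested. *FSHR* stayed at or below 0.697 CPM, *AMH* at or below 0.396 CPM and *CYP11A1* at or below 0.534 CPM. Other cumulus and granulosa markers were not as low. *PTGS2* was at 0.421 to 1.06 CPM in GV and at 1.17 CPM or more in every cultured library. *TNFAIP6* reached 1.48 CPM in GV, 3.19 CPM in MII and 0.0752 CPM in ‘damaged’ libraries. Whether these reads came from cumulus cells was not tested. The 4 blood markers found summed to at most 1.97 CPM. CPM are counts relative to the library total, here and below scaled by TMM, a method that equalises the bulk of genes between libraries.

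Between MIX and GV oocytes, 3 of the decay genes were upregulated DEGs (FDR < 0.01 and an absolute log2 fold change above 2), *BTG4*, *DCP2* and *XRN1*, and 7 were downregulated DEGs, *ZFP36L2*, *PATL2*, *LSM4*, *LSM6*, *EXOSC2*, *EXOSC4* and *EXOSC6*. Of the 7, *EXOSC4* and *EXOSC6* passed the filter on low counts only through their GV libraries, which favoured a fall. Without the size limit, 28 of the 55 genes tested rose (50.9%) and 16 fell (29.1%), and 11 did not pass. Of all 13220 genes tested, 30.0% rose and 37.0% fell, 4.27% were upregulated DEGs and 16.7% were downregulated DEGs. The median log2 fold change was 0.58 over the decay genes and -0.16 over all genes. These directions depend on the scaling. With library sizes and no TMM factors, the median of all genes was -1.06 and that of the decay genes -0.32, and 12 of the 28 still rose while the other 16 did not pass. On that scale 12 decay genes rose and 24 fell, against 11.9% and 60.1% of all genes, and 0 and 12 were DEGs, against 0.348% and 28.6%. The 12 were *BTG4*, *YTHDF2*, *CNOT2*, *CNOT6*, *CNOT7*, *DCP1A*, *DCP2*, *LSM7*, *XRN1*, *EXOSC7*, *UPF2* and *UPF3B*. All 16 genes that fell did so on both scales. In the 8 libraries with an undisputed gene column (2 GV, 3 MII and 3 ‘damaged’), a choice made after seeing the data, all 10 DEGs were DEGs and all 44 genes called kept their sign, while 35 of the 44 passed. *DCP1B* and *SMG5* had at most 17.0 and 4.95 counts in any library and were not tested.

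**Figure D1:**
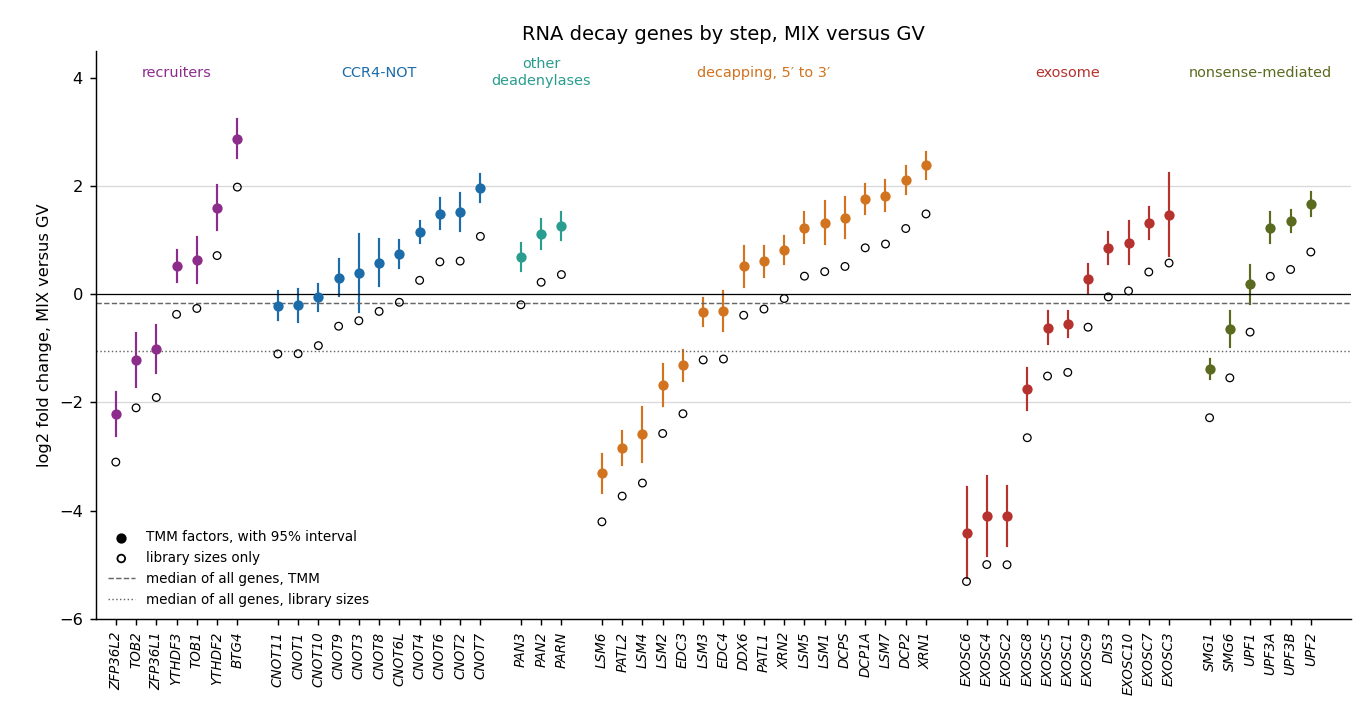
Log2 fold change of MIX versus GV for each of the 55 genes tested, ordered within each step of decay. Filled points are the TMM-scaled fit with its 95% interval, open circles are the fit on library sizes alone, the dashed and dotted lines are the medians of all 13220 genes on these scales (-0.16 and -1.06), and grey lines mark the limit of 2 for DEGs. Each step except the other deadenylases holds genes on both sides of 0, and the spread is widest in the exosome, from -4.41 to 1.47. The lowest value, that of EXOSC6, rests on few or no counts in cultured libraries.

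In 25 of the 55 genes tested (45.5%) the lowest MIX library lay above the highest GV library, and in 12 (21.8%) the highest MIX library lay below the lowest GV library. The same held for 24.3% and 29.4% of all genes. Values by library are given below for 20 genes, in the order of replicates 1, 2, 4 and 5 for GV and 1 to 5 for the other groups. In the plot of single libraries the MII and ‘damaged’ points lay side by side in most of these genes.

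**Figure D2:**
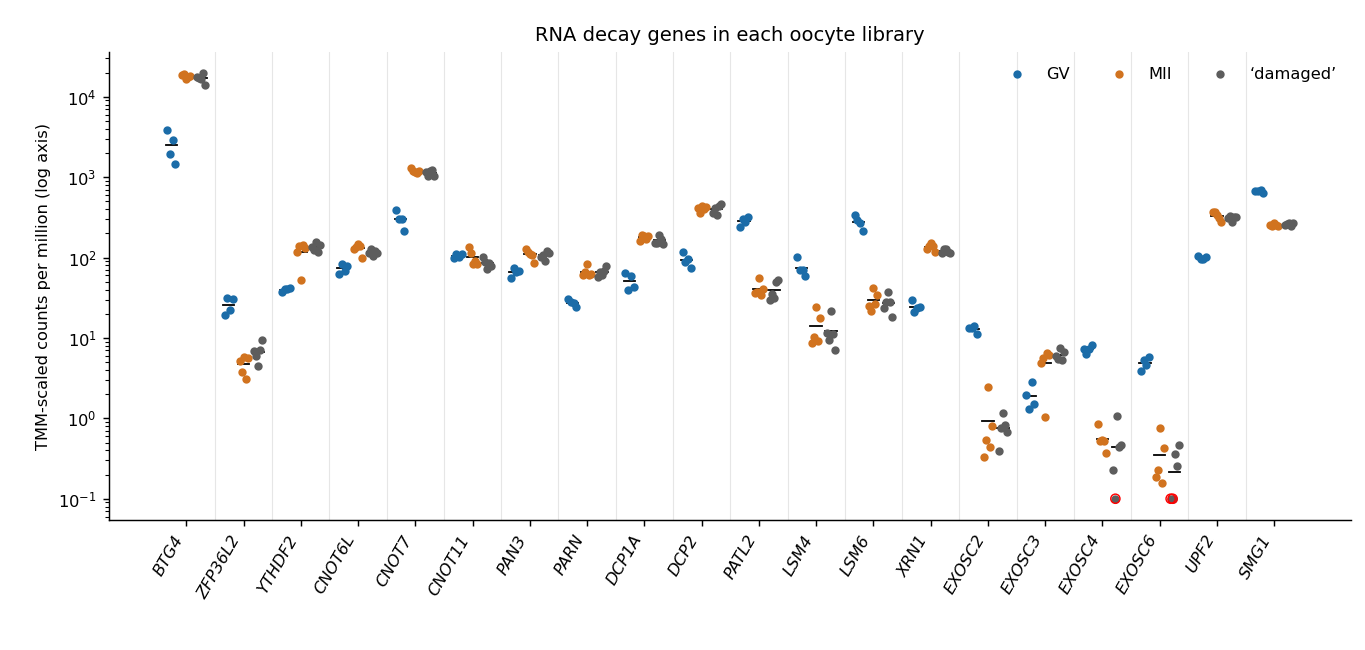
TMM-scaled CPM (log axis) of the 20 genes described by library, in 4 GV, 5 MII and 5 ‘damaged’ libraries. Points are libraries, short black lines are group means, and red circles mark libraries with no count, drawn at 0.1. The GV points of BTG4 lie from 1451 to 3852 CPM and those of the cultured oocytes from 14046 to 19566 CPM, while EXOSC2 lies from 11.2 to 14.02 CPM in GV and from 0.329 to 2.46 CPM in cultured oocytes.

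*BTG4* (ENSSSCG00000015020, chromosome 9 from 39253116 to 39281327 in RefSeq's Sscrofa11.1 annotation) is the adaptor that brings CCR4-NOT to the mRNAs of maturing oocytes. It had 3852, 1932, 2886 and 1451 CPM in the GV libraries, 18643, 18931, 16379, 17717 and 17910.2 in the MII libraries and 17714, 16971, 16615, 19566 and 14046 in the ‘damaged’ libraries. The lowest cultured library was several times the highest GV library. Its log2 fold change was 2.88 ± 0.17 (SE, limma-voom, FDR = 1.43e-11) and 1.98 on library sizes. Per length, *BTG4* was also the most abundant of the 57 genes in each group, with 6681 ± 1809 TPM (a level per transcript length that sums to the same total in each library) in GV, 23829 ± 492.9 in MII and 23328 ± 1991 in ‘damaged’ oocytes (mean ± SD). It held 50.2 to 66.4% of the summed TPM of the 57 genes in the GV libraries and 85.4 to 88.6% in the MIX libraries. The sum of the other 56 was 4374 to 4722 TPM in GV and 3085 to 3922 TPM in MIX.

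*YTHDF2*, a reader of methylated adenosines that recruits CCR4-NOT, was at 37.3, 40.4, 40.7 and 41.5 CPM in GV, 116, 141, 52.3, 143 and 132 in MII and 134, 123, 154, 117 and 144 in ‘damaged’ libraries. MII replicate 3 was much lower than the other cultured libraries but above the GV libraries. *YTHDF2* rose by 1.60 ± 0.20 (FDR = 4.82e-07; 0.72 on library sizes). Its relative *YTHDF3* rose by 0.52 with overlapping groups and changed sign on library sizes (-0.37). *TOB1*, an adaptor of the same family as *BTG4*, rose by 0.63 (FDR = 0.00780) and likewise changed sign on library sizes (-0.26). The other *TOB* gene fell on both scales, *TOB2* by 1.22 (FDR = 0.000134). The ratio of *TOB1* to *TOB2* in TPM was 2.91 to 7.32 before and 8.79 to 33.4 after culture.

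Both measured members of the ZFP36L pair, zinc-finger proteins that bind AU-rich elements and recruit CCR4-NOT, fell. *ZFP36L2* (chromosome 3 from 97200395 to 97203094) was at 19.2, 31.5, 22.1 and 30.5 CPM in GV, 5.14, 3.81, 5.84, 3.12 and 5.66 in MII and 6.93, 5.90, 4.43, 7.02 and 9.34 in ‘damaged’ libraries. No cultured library reached the lowest GV value. The change was -2.21 ± 0.19 (FDR = 2.64e-09). *ZFP36L1* fell by 1.01 (FDR = 0.000259), with overlap between the groups, and its ratio to *ZFP36L2* in TPM was 0.718 to 1.62 before and 1.76 to 3.96 after culture. Of the 7 recruiters, 4 rose (57.1%) and 3 fell (42.9%), against 30.0% and 37.0% of all genes, with a median log2 fold change of 0.52.

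In the CCR4-NOT complex 5 of 11 genes rose (45.5%) and none fell, by limma-voom at FDR < 0.01, and 6 did not pass. Of all genes, 30.0% rose and 37.0% fell. On library sizes 3 of the 5 still rose and 4 of the 6 fell, while 11.9% of all genes rose and 60.1% fell. The catalytic subunits are of 2 kinds, *CNOT7* or *CNOT8* and *CNOT6* or *CNOT6L*. *CNOT7* (chromosome 17 from 4934379 to 4950093) had 393, 300.4, 302 and 215 CPM in GV, 1294, 1202, 1143, 1117 and 1195 in MII and 1173, 1018, 1189, 1216 and 1046 in ‘damaged’ libraries. The groups were far apart and the cultured libraries lay close together. The rise of 1.97 ± 0.12 (FDR = 2.94e-11; 1.07 on library sizes) was the largest of the complex and just under the limit for a DEG. *CNOT8* was at 0.58 (FDR = 0.0169), which did not pass. The ratio of *CNOT7* to *CNOT8* in TPM, which does not depend on the scaling of libraries, was 8.37 to 10.2 in the GV libraries and 16.2 to 41.4 in the MIX libraries.

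*CNOT6L* was at 63.3, 83.3, 68.2 and 77.8 CPM in GV, 129, 136, 147, 139 and 98.8 in MII and 113, 128, 103, 120.3 and 114 in ‘damaged’ libraries. All cultured libraries were above the GV libraries on this scale. *CNOT6L* rose by 0.74 ± 0.12 (FDR = 1.52e-05) but was at -0.15 on library sizes, so that its sign turned with the scale. *CNOT6* rose by 1.49 (FDR = 7.58e-09; 0.60 on library sizes). In TPM, the GV libraries held 0.464 to 0.515 *CNOT6* per *CNOT6L* and the MIX libraries 0.709 to 0.903.

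Among the subunits that are not nucleases, *CNOT2* of the NOT module rose by 1.51 and *CNOT4*, a ubiquitin ligase, by 1.15, although *CNOT4* did not pass on library sizes (0.26). *CNOT1*, the scaffold, was at -0.20 (FDR = 0.225), *CNOT3* at 0.39, *CNOT9* at 0.30 and *CNOT10* at -0.05, none of which passed. *CNOT11* had the lowest log2 fold change of the complex. Its values were 97.9, 110.2, 103 and 112 CPM in GV, 134, 115, 82.4, 91.5 and 83.7 in MII and 101, 88.8, 71.8, 85.96 and 77.5 in ‘damaged’ libraries. The groups overlapped, and the change of -0.21 ± 0.13 did not pass (FDR = 0.159), whereas on library sizes it was -1.10 and passed.

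All 3 of the other deadenylase genes rose on the TMM scale, as did 30.0% of all genes, and none of the 3 passed on library sizes. *PARN*, a deadenylase that is stimulated by the cap, was at 30.2, 28.1, 27.1 and 24.3 CPM in GV, 60.2, 65.5, 82.5, 60.97 and 63.1 in MII and 56.4, 65.5, 59.8, 67.3 and 78.8 in ‘damaged’ libraries. Each cultured library was above each GV library. Its change was 1.26 ± 0.13 (FDR = 2.20e-08; 0.37 on library sizes). *PAN3*, which tethers the PAN2 nuclease to poly(A)-binding protein, had 55.2, 74.7, 66.9 and 68.9 CPM in GV, 128, 118, 109, 108 and 85.4 in MII and 102, 108, 90.7, 119 and 112 in ‘damaged’ libraries. The groups did not overlap, but the rise of 0.70 ± 0.12 (FDR = 4.01e-05) became -0.19 on library sizes. *PAN2* rose by 1.12 (FDR = 2.96e-07) and was at 0.22 on library sizes.

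Decapping and 5′ to 3′ decay held the largest rises after *BTG4*. *DCP2*, the decapping enzyme (chromosome 2 from 116736800 to 116804693), was at 118, 88.1, 95.6 and 74.3 CPM in GV, 409, 356, 441, 399.7 and 419 in MII and 361, 411, 339.8, 433 and 464 in ‘damaged’ libraries. The cultured libraries lay well above the GV libraries with no overlap. *DCP2* rose by 2.11 ± 0.13 (FDR = 1.16e-11; 1.22 on library sizes). In TPM it moved from place 16 of the 57 genes in GV to place 5 in MII and in ‘damaged’ oocytes. *DCP1A*, its activator, was at 64.8, 39.3, 58.3 and 43.5 CPM in GV, 159, 193, 186, 171 and 184 in MII and 154, 153, 193, 169.8 and 148 in ‘damaged’ libraries. Here too no libraries overlapped. The rise was 1.76 ± 0.13 (FDR = 3.28e-10; 0.86 on library sizes).

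*XRN1* (chromosome 13 from 83063810 to 83174497) digests decapped mRNA from its 5′ end. Its values were 29.4, 20.8, 23.5 and 24.6 CPM in GV, 129, 140.3, 152, 139 and 115 in MII and 115, 128, 129, 117 and 114 in ‘damaged’ libraries. GV values were tightly grouped and all cultured values were several-fold higher. *XRN1* rose by 2.38 ± 0.12 (FDR = 1.43e-12; 1.49 on library sizes). *XRN2*, the nuclear relative, rose by 0.82 with no change of note on library sizes (-0.08, FDR = 0.542). The ratio of *XRN1* to *XRN2* in TPM was 0.145 to 0.172 before culture and 0.367 to 0.514 after it.

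Pat1 proteins link deadenylated mRNA to decapping, and *PATL2* is their oocyte form. *PATL2* (ENSSSCG00000061749) was at 242, 299, 274 and 318 CPM in GV, 36.3, 36.9, 56.3, 34.5 and 41.00 in MII and 29.6, 35.3, 31.7, 49.9 and 51.8 in ‘damaged’ libraries. All cultured libraries were far below the GV libraries. The change was -2.84 ± 0.15 (FDR = 2.66e-12). *PATL1* rose by 0.61 (FDR = 0.000469) but was at -0.27 on library sizes. *PATL1* stood at 0.0444 to 0.0552 of *PATL2* in TPM in the GV libraries and at 0.371 to 0.816 in the MIX libraries.

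Of the remaining decapping genes, *DCPS*, the scavenger enzyme that hydrolyses the freed cap, rose by 1.42 (FDR = 7.51e-07; 0.52 on library sizes, which did not pass). *EDC3*, an enhancer of decapping, fell by 1.31 (FDR = 4.06e-08) with no overlap between groups. *EDC4*, a scaffold of the decapping complex, was at -0.30 and *DDX6*, a helicase of decapping bodies, at 0.52 (FDR = 0.124 and 0.0147), and neither passed.

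The LSM proteins 1 to 7 form a ring that binds the 3′ end of deadenylated mRNA, and *LSM2* to *LSM7* also serve a nuclear ring on U6 RNA. Their mRNAs moved in both directions, as 3 of 7 rose and 3 fell (42.9% each), against 30.0% and 37.0% of all genes. *LSM6* (chromosome 8 from 82409170 to 82428501) was at 339.9, 295, 269 and 214 CPM in GV, 24.6, 21.8, 41.8, 26.6 and 34.3 in MII and 23.5, 28.2, 37.1, 27.9 and 18.4 in ‘damaged’ libraries. The highest cultured library was far below the lowest GV library. *LSM6* fell by 3.31 ± 0.17 (FDR = 1.66e-12). *LSM4* (chromosome 2 from 59499560 to 59513258) was at 102, 69.5, 69.8 and 58.1 CPM in GV, 8.58, 10.2, 24.4, 9.15 and 17.5 in MII and 11.7, 9.43, 21.9, 11.2 and 7.06 in ‘damaged’ libraries. MII replicate 3 and ‘damaged’ replicate 3 were the highest cultured libraries, and both stayed below all GV libraries. *LSM4* fell by 2.59 ± 0.24 (FDR = 7.08e-09).

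*LSM2* fell by 1.68 (FDR = 9.03e-08), and *LSM3* was at -0.32 (FDR = 0.0234), which did not pass. *LSM7* rose by 1.83 (FDR = 3.24e-10) and by 0.93 on library sizes. *LSM1*, which is found only in the cytoplasmic ring, rose by 1.32 and *LSM5* by 1.23, while neither passed on library sizes (0.42 and 0.34). In TPM, the most abundant of the 7 LSM genes was 21.5 to 31.2 times the least abundant in the GV libraries and 101 to 214 times in the MIX libraries. *LSM5* was the most abundant, with 943 ± 64.5 TPM in GV, 1051 ± 179.7 in MII and 1147 ± 96.9 in ‘damaged’ oocytes.

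**Figure D3:**
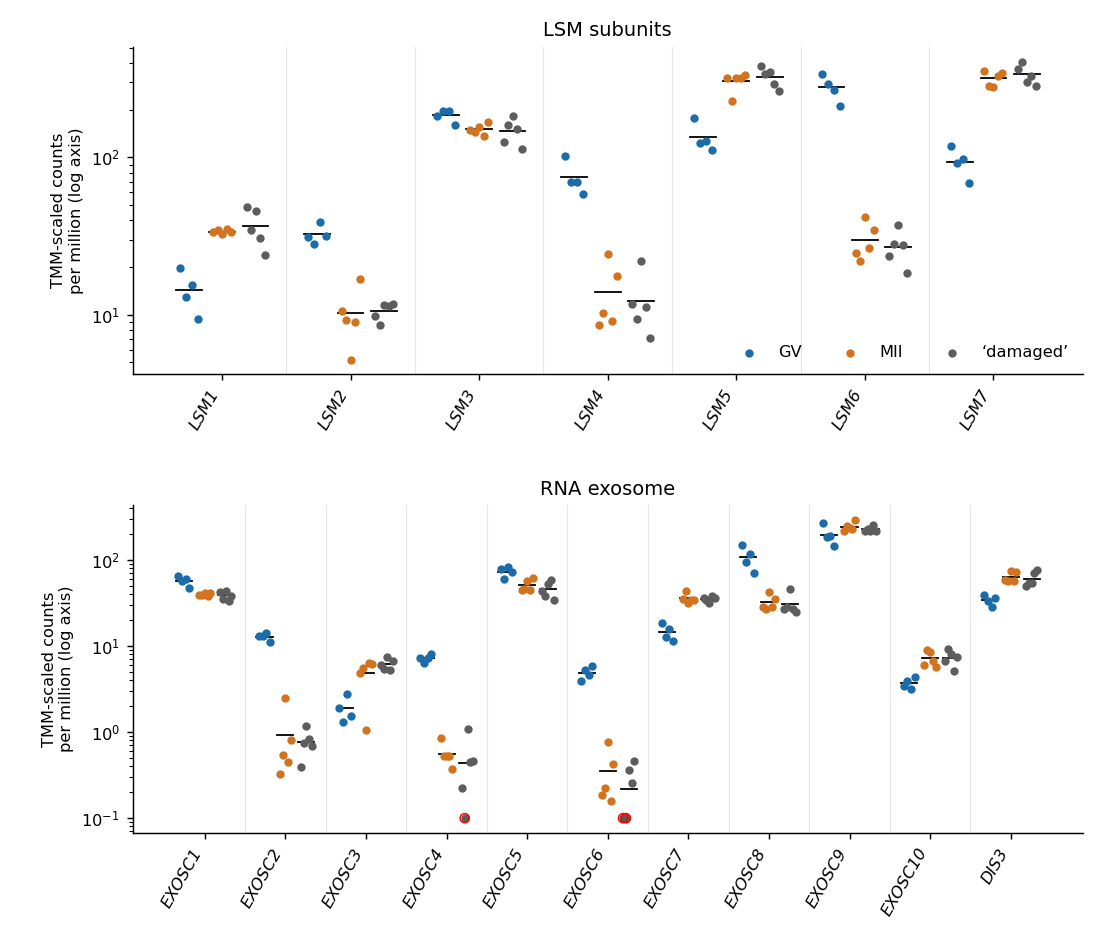
TMM-scaled CPM (log axis) of the 7 LSM genes (top) and of the 11 exosome genes (bottom) in 4 GV, 5 MII and 5 ‘damaged’ libraries. Points are libraries, short lines are group means, and red circles mark libraries with no count, drawn at 0.1. Within each complex some genes lie higher and others lower in the cultured oocytes, such as LSM7 (mean log2 fold change 1.83) and LSM6 (-3.31), or EXOSC7 (1.31) and EXOSC8 (-1.75).

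The exosome had the lowest median of all steps, -0.55, with 4 of 11 genes higher (36.4%) and 6 lower (54.5%), against 30.0% and 37.0% of all genes. Its ring consists of *EXOSC4* to *EXOSC9*, its cap of *EXOSC1* to *EXOSC3*, and *EXOSC10* and *DIS3* are the nucleases. *EXOSC6* (chromosome 6 from 13295591 to 13296942) was at 3.88, 5.25, 4.56 and 5.81 CPM in GV, 0.187, 0.225, 0.762, 0.157 and 0.4302 in MII and 0, 0, 0.360, 0.253 and 0.464 in ‘damaged’ libraries. Every cultured library was below every GV library, and 2 ‘damaged’ libraries had no count. This corresponds to 75.8 to 140 counts per GV library and 0 to 9.84 counts per cultured library. The fitted change was -4.41 ± 0.40 (FDR = 5.90e-09). All cultured counts were under the minimum of 10 counts set in the filter. The gene was thus tested through its GV libraries alone, and the size of the fall rests on counts near 0.

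*EXOSC4* (chromosome 4 from 618993 to 621336) was at 7.24, 6.34, 7.35 and 8.13 CPM in GV, 0.843, 0.526, 0.534, 0.524 and 0.369 in MII and 0.226, 0, 1.08, 0.444 and 0.464 in ‘damaged’ libraries, that is 124 to 196 counts per GV library and 0 to 17.8 counts per cultured library. Again the groups were fully apart, and 1 ‘damaged’ library had no count. Its change was -4.10 ± 0.36 (FDR = 2.84e-09), and the size of this fall also rests on few cultured counts. Too few cultured libraries reached the filter's minimum, so that *EXOSC4* too was tested through its GV libraries alone. *EXOSC2* (chromosome 1 from 270748534 to 270757717) was at 13.2, 13.2, 14.02 and 11.2 CPM in GV, 0.329, 0.541, 2.46, 0.445 and 0.812 in MII and 0.396, 0.748, 1.17, 0.834 and 0.685 in ‘damaged’ libraries, with 257 to 293 counts per GV library and 3.48 to 31.8 per cultured library. MII replicate 3 was the highest of the cultured libraries and still far below the lowest GV library. *EXOSC2* fell by 4.09 ± 0.27 (FDR = 4.38e-11).

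*EXOSC8* fell by 1.75 (FDR = 3.98e-08), *EXOSC5* by 0.62 (FDR = 0.000771) and *EXOSC1* by 0.55 (FDR = 0.000244). *EXOSC9* was at 0.29 (FDR = 0.0542), which did not pass, and on library sizes it was lower (-0.61). *EXOSC3* had the largest log2 fold change of the step, at a low level. It had 1.93, 1.31, 2.79 and 1.52 CPM in GV, 4.91, 5.55, 1.05, 6.41 and 6.13 in MII and 5.97, 5.47, 7.39, 5.27 and 6.64 in ‘damaged’ libraries. MII replicate 3 lay below all GV libraries, and the other 9 cultured libraries lay above them. The change was 1.47 ± 0.37 (FDR = 0.00130) and 1.71 without that library, and it did not pass on library sizes (0.58) or in the 8 libraries with an undisputed gene column (1.27, FDR = 0.0528).

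*EXOSC7* rose by 1.31 (FDR = 6.02e-08; 0.41 on library sizes). Of the nucleases, *EXOSC10* rose by 0.95 and *DIS3* by 0.85, while on library sizes they were at 0.06 and -0.05, of opposite sign, and neither passed. Among the 9 ring and cap genes, the most abundant in TPM was 53.4 to 89.8 times the least abundant in GV libraries. In the MII libraries it was 148 to 690 times, and 2 ‘damaged’ libraries had a subunit at 0. The gene with the lowest mean in MII was *EXOSC6*, at 0.256 TPM, so that the ratios after culture rest on counts near 0.

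In nonsense-mediated decay, 3 of the 6 genes tested rose and 2 fell, while 30.0% of all genes rose and 37.0% fell. *UPF2*, which bridges the exon junction complex and the helicase UPF1, was at 104, 96.7, 95.3 and 103 CPM in GV, 369, 363, 342, 311 and 274 in MII and 306, 329, 275, 319 and 323 in ‘damaged’ libraries. All cultured libraries were above all GV libraries. *UPF2* rose by 1.68 ± 0.11 (FDR = 3.02e-11; 0.78 on library sizes). Its partners *UPF3A* and *UPF3B* rose by 1.23 and 1.35 (FDR = 1.03e-07 and 2.47e-10), of which *UPF3A* did not pass on library sizes (0.33). *UPF1* itself was at 0.18 (FDR = 0.332), which did not pass.

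*SMG1*, the kinase that acts on UPF1, was at 672, 679, 686 and 637 CPM in GV, 252, 244, 271, 251 and 249 in MII and 251, 258, 265, 245 and 269 in ‘damaged’ libraries. The spread within each group was small and the groups were far apart. *SMG1* fell by 1.39 ± 0.09 (FDR = 2.96e-11). *SMG6*, the endonuclease of the pathway, fell by 0.65 (FDR = 0.00110). In TPM, the most abundant of the 6 genes was 38.4 to 80.0 times the least abundant in GV libraries and 18.9 to 36.2 times in MIX libraries. This is the opposite direction to the LSM and exosome genes, of which the exosome ratio rests on counts near 0. The untested *SMG5*, at 0.121 TPM in GV and 0.0705 in MIX, is not among the 6.

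Levels of different genes were compared in TPM only, with no test. After *BTG4*, the order in GV oocytes was *LSM5* (943 ± 64.5), *CNOT7* (353 ± 34.7), *PATL2* (334 ± 88.99), *EXOSC8* (324 ± 52.2) and *SMG1* (313 ± 42.3). Among the last 4 of these, neighbours in the order differed by less than either SD. In MII oocytes *BTG4* was followed by *LSM5* (1051 ± 179.7), *CNOT7* (685 ± 42.8), *LSM7* (323 ± 31.5) and *DCP2* (125 ± 16.3), all apart by more than their SDs. The ‘damaged’ oocytes had the same first 5. *PATL2* moved from place 4 in GV to 27 in MII and 28 in ‘damaged’, *LSM4* from 7 to 33 and 35, and *LSM6* from 10 to 41 and 42. *XRN1* moved up, from place 50 to 32 and 33.

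The comparison of MII with ‘damaged’ oocytes asks whether oocytes that extruded a polar body differ from those that did not. None of the 55 decay genes passed FDR < 0.01 by limma-voom (0.00% of all genes in either direction), nor with edgeR's quasi-likelihood test or DESeq2, and the smallest adjusted p by limma-voom was 1.00. By unadjusted p under 0.05, 1 of the 55 (1.82%) passed, against 1.48% of all genes. That gene was *CNOT9*, with 15.5, 15.8, 20.7, 21.97 and 19.2 CPM in MII and 22.9, 22.6, 36.8, 21.9 and 19.1 in ‘damaged’ libraries, a log2 difference of -0.38 (95% interval -0.75 to -0.0027) that did not hold after adjustment. Its groups overlapped. The 95% interval of the difference lay within 1 log2 unit of 0 for 50 of the 55 genes. The median distance from the estimate to its limits was 0.34. These intervals come from the fit without a replicate block, which leaves out any pairing of groups by collection.

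Intervals that reached further were those of *EXOSC6* (1.05, from -0.41 to 2.51), *EXOSC4* (0.82, from -0.44 to 2.07), *EXOSC3* (-0.54, from -1.28 to 0.19), *CNOT3* (-0.49, from -1.28 to 0.30) and *ZFP36L2* (-0.52, from -1.05 to 0.01). *EXOSC6* and *EXOSC4* had few or no counts in these libraries. Intervals also differed in width among the DEGs. That of *EXOSC2* ran from -0.99 to 0.84 around -0.08, and that of *LSM6* from -0.30 to 0.57 around 0.14. *BTG4* differed by 0.08 (from -0.30 to 0.46), *CNOT7* by 0.08 (from -0.19 to 0.35), *DCP2* by 0.02 (from -0.25 to 0.29), *XRN1* by 0.16 (from -0.08 to 0.41) and *PATL2* by 0.06 (from -0.32 to 0.43). For these last 5 genes, a difference of 1 log2 unit lay outside the 95% interval.

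**Figure D4:**
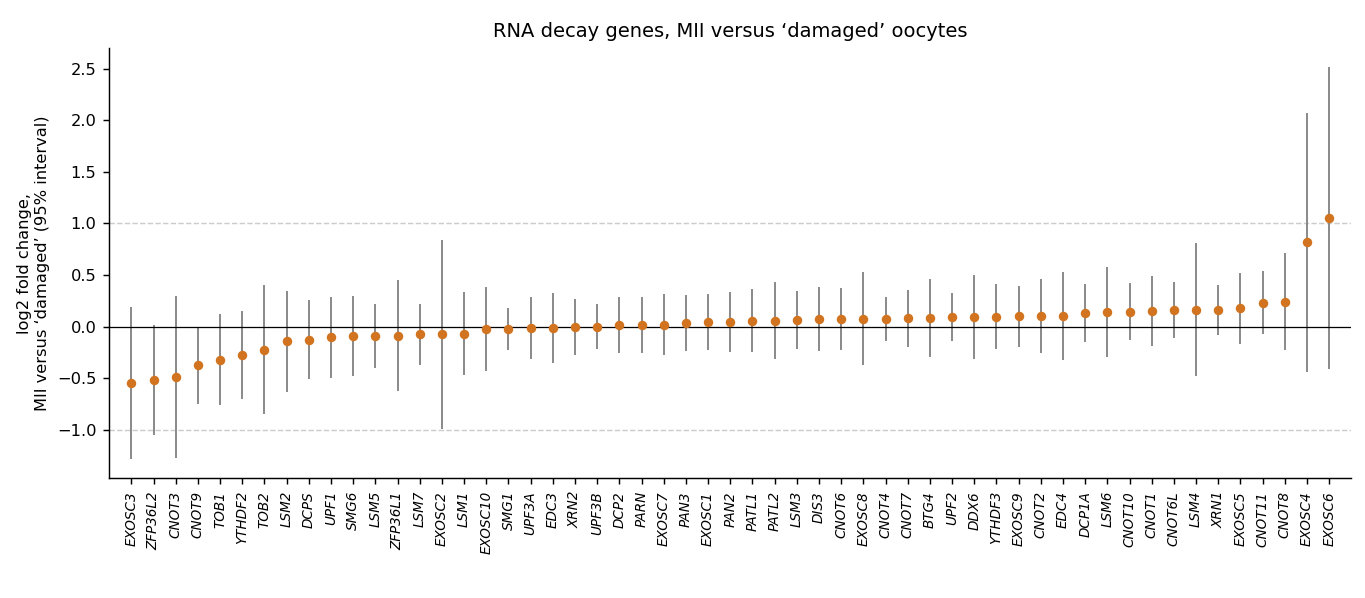
Log2 fold change of MII versus ‘damaged’ oocytes with its 95% interval for the 55 decay genes tested, in order of size (5 libraries per group). Dashed lines mark a difference of 1 log2 unit. Point estimates run from -0.54 (EXOSC3) to 1.05 (EXOSC6, with few or no counts), and 50 of the 55 intervals lie between the dashed lines.

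Set against the same 4 GV libraries, MII and ‘damaged’ oocytes each gave the following. In MII oocytes 4 genes were upregulated and 7 downregulated DEGs, against 4.51% and 17.0% of all genes, and in ‘damaged’ oocytes 3 and 6, against 4.08% and 16.4%. At FDR < 0.01 alone, 26 rose and 16 fell in MII, against 28.2% and 34.2% of all genes, and 27 rose and 16 fell in ‘damaged’ oocytes, against 28.0% and 33.4%. The gene added on the higher side in MII was *CNOT7* (2.01 in MII and 1.93 in ‘damaged’). On the lower side it was *ZFP36L2* (-2.47 and -1.95). The direct difference of neither gene passed, as given above. For *BTG4* the values were 2.92 and 2.84, for *DCP2* 2.12 and 2.11, for *XRN1* 2.46 and 2.30, for *LSM6* -3.24 and -3.38, and for *SMG1* -1.40 and -1.38.

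The transcripts of a gene can shift in proportion. This was tested with the model of DEXSeq (FDR < 0.01 and a change of more than 10 percentage points in the transcript's share of the gene's TPM). In each comparison, only genes that already held a transcript with a change of that size in these libraries entered the test. The shares called below are therefore shares of a preselected set. Of the 57 decay genes, 41 had several transcripts with a count. Of the 23 decay genes tested for MIX versus GV, 16 had a called transcript (69.6%), against 63.3% of all genes tested, and 30 of their 61 transcripts were called (49.2%), against 43.2%. None of the 4 transcripts of 1 decay gene tested between MII and ‘damaged’ oocytes was called, by this model or by limma's diffSplice (0 at an unadjusted p under 0.05 with either), against 0.0785% of all transcripts and 0.233% of all genes tested. Transcripts are named below by their effective length, and genes were picked for large shifts after their values were seen.

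*PARN* had a large shift. A transcript of 1441 bases was 0 to 9.53% of *PARN* TPM in the GV libraries and 54.9 to 69.2% in the MIX libraries (FDR = 3.66e-16). Its level went from 0.615 ± 1.23 to 21.6 ± 5.05 TPM (mean ± SD). A transcript of 2914 bases was 18.5 to 34.2% in GV and listed at 0 in all MIX libraries, and one of 2748 bases was 5.70 to 34.8% and then 0 to 2.39%. The 2769-base transcript, 35.9 to 50.6% and then 30.8 to 41.2%, did not pass.

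*SMG1* shifted from a 3991-base transcript, 91.97 to 94.6% in GV and 66.5 to 75.1% in cultured oocytes (FDR = 6.06e-60), towards one of 7558 bases, 4.42 to 7.18% and 19.2 to 23.2% (FDR = 2.14e-60). In TPM the shorter one went from 293 ± 42.1 to 41.7 ± 5.25 and the longer one from 17.1 ± 1.73 to 12.3 ± 0.998. Another one, of 11981 bases, was at 2.86 ± 0.919 and 4.34 ± 1.04 TPM.

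In *DIS3* a 2757-base transcript was at 36.7 to 59.9% in GV and 79.2 to 91.4% in cultured oocytes (FDR = 4.63e-21), and a 6211-base transcript at 33.3 to 56.5% and then 0 to 11.5% (FDR = 8.08e-05). *UPF2* lost share in its 9505-base transcript, 31.1 to 42.4% in GV and 2.31 to 6.18% in cultured oocytes (FDR = 7.98e-46), and gained in those of 4465 and 5141 bases. *DDX6*, whose total did not pass, moved from a 2162-base transcript, 59.96 to 81.8% in GV and 32.4 to 43.7% in MIX, to one of 1616 bases, 6.59 to 34.98% and 54.9 to 65.1% (FDR = 8.60e-08 and 2.18e-10). *CNOT10*, whose total did not pass either, moved from a 2343-base transcript (44.7 to 57.8% and then 0 to 26.7%) to a 2269-base one (3.76e-05 to 13.00% and then 36.4 to 61.8%). For the called transcripts given here the libraries of MIX and GV did not overlap. These shares are Kallisto's division of short single-end reads between transcripts of 1 gene, and how well such reads tell these transcripts apart was not tested.

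**Figure D5:**
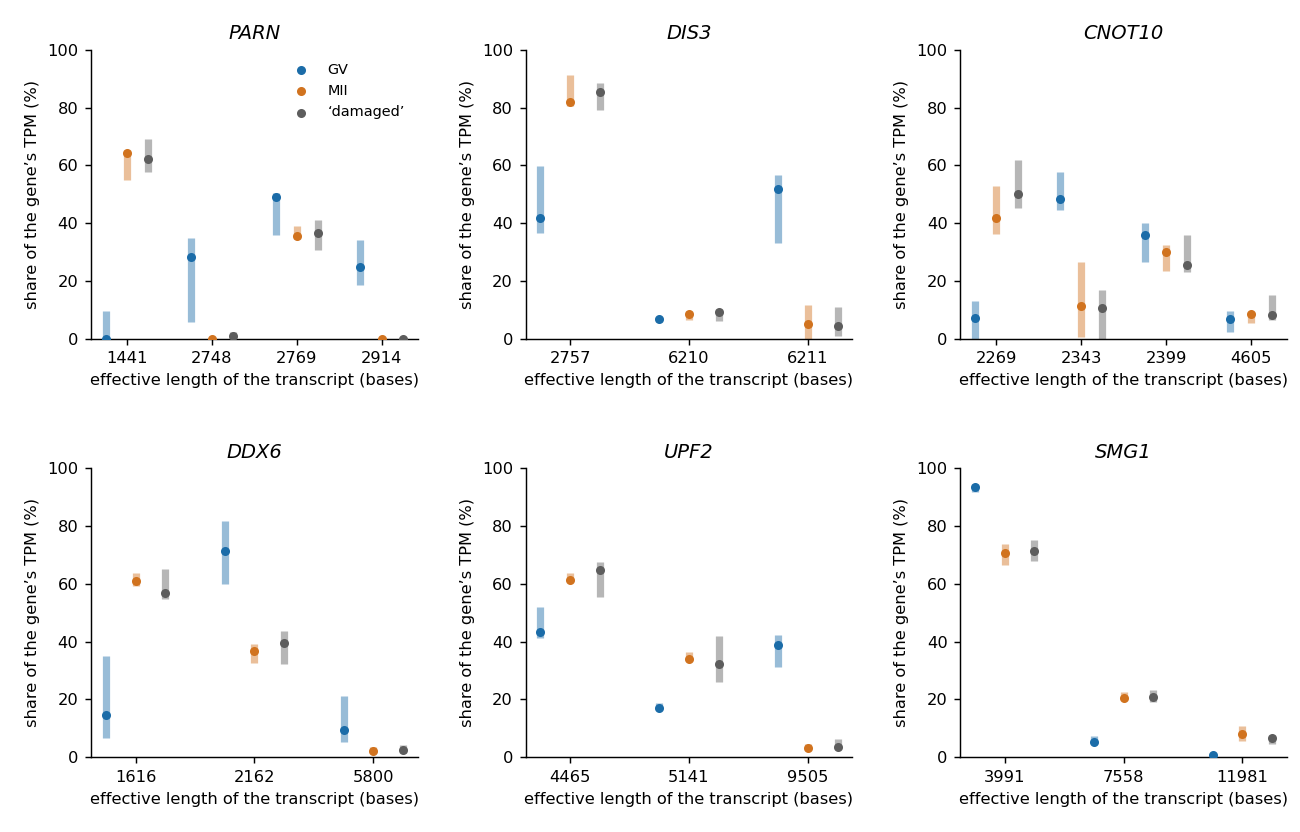
Share of the gene's TPM (%) held by each transcript tested in 6 decay genes, with transcripts ordered by effective length in bases. Points are the median and bars the range over 4 GV, 5 MII and 5 ‘damaged’ libraries. MII and ‘damaged’ ranges overlap in the panels while GV stands apart for the called transcripts, such as the 1441-base PARN transcript at 0 to 9.53% before and 54.9 to 69.2% after culture.

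The mean length of the transcripts of a gene, weighted by TPM, was available for 39 of the decay genes. In 7 (17.9%) all MIX libraries were shorter than all GV libraries, and in 4 (10.3%) all were longer. Of all 7091 genes with such a value, the shares were 17.4% and 9.11%.

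Other factors of the same pathways were taken from a list of 50 genes chosen by function, of which 42 had counts found and 41 were tested. Of these, 10 rose (24.4%) and 17 fell (41.5%) between GV and MIX, against 30.0% and 37.0% of all genes. None was an upregulated and 7 were downregulated DEGs, against 4.27% and 16.7% of all genes. On library sizes 2 rose (4.88%) and 27 fell (65.9%), against 11.9% and 60.1% of all genes. The largest rise was *RBM8A*, a core protein of the exon junction complex (1.82, FDR = 1.82e-09; 0.92 on library sizes). The DEGs were *PNRC1* (-3.96), *SKIC8*, a subunit of the Ski complex that feeds the exosome (-3.91), *YTHDF1* (-3.65), *SAMD4A* (-2.80), *TNRC6C* (-2.67), *TOE1*, a deadenylase (-2.40), and *NUDT16*, a decapping enzyme (-2.35). *SAMD4A* and *TNRC6C* were below 1 CPM on average in GV libraries, and at 0 to 0.618 and 0 to 0.199 CPM in cultured libraries. Both passed the filter on low counts only through their GV libraries, which favoured a fall, and its size rests on few or no counts. *SKIC8* was at 349, 224, 328 and 219 CPM in GV, 14.3, 14.97, 28.9, 14.4 and 17.9 in MII and 12.9, 16.7, 22.9, 22.05 and 22.2 in ‘damaged’ libraries, with no overlap.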

How the data were processed

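Poly(A)-primed RNA-seq libraries of 15 pooled pig oocytes each were analysed in 3 groups of 5 (GV, MII and ‘damaged’). Per the labels, the authors quantified unstranded single-end reads per transcript with Kallisto 0.43 on Sscrofa11.1 and deposited estimated counts and TPM per transcript. They also deposited a table of estimated counts per gene, scaled from TPM by transcript length. In that table, 7 columns carried the total of another library and were not used. Each gene was assigned its transcripts where their summed values equalled the other 8 columns (18720 of 18954 genes, none of 95520 counts of at least 10 off by more than 1e-06 percent), and all libraries then received gene counts from their own transcript files. Group names are thus those of the transcript files.

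The fit was limma-voom (limma 3.58.1 in R 4.3.3) with TMM factors from edgeR 4.0.16, over 13220 genes kept by filterByExpr in 14 libraries. GV replicate 3, the library of lowest depth, was left out, on the assumption that it is the unnamed GV library the study removed. P-values were adjusted over all genes (Benjamini-Hochberg), and DEGs had FDR < 0.01 and an absolute log2 fold change above 2. "Rose" and "fell" mean FDR < 0.01. Per the methods, the collections were biologically independent and each supplied oocytes of every group. Libraries of different groups may thus be paired by collection, which the main fit left out. No source used here ties a replicate number to a collection or to animals. PCR reads carried no molecular identifiers. Transcript usage was fitted with the model of DEXSeq in DESeq2 1.42.0. Scripts were tested on simulated data. Alternatives were library sizes, edgeR, DESeq2, other filters, summed counts, all GV libraries, a replicate block and leaving out each library. Values by library are given for the highest and lowest log2 fold change of each step, the DEGs, and 8 genes with a known role in maturation (*BTG4*, *CNOT6L*, *CNOT7*, *DCP1A*, *DCP2*, *ZFP36L2*, *YTHDF2* and *PATL2*). The members, lists and rules were chosen with earlier results of these data known. Gene positions are those of RefSeq.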

Additional observations from a re-analysis of the deposited data

Results flagged for a closer look

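Of 60 sets of 5 MII or ‘damaged’ libraries or 4 GV libraries examined for a library far from the others by Dixon's criterion, 3 had one, and chance gives about 1 in 20. All 3 were MII replicate 3. *PARN* was at 82.5 CPM there and at 60.2 to 65.5 CPM in the other MII libraries. *EXOSC2* was at 2.46 CPM, against 0.329 to 0.812 CPM. *EXOSC3* was at 1.05 CPM, against 4.91 to 6.41 CPM, and without this library the log2 fold change of *EXOSC3* between MII and GV was 1.67 (FDR = 6.41e-06 by limma-voom).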

How the results depend on the processing

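Counts under the alternatives below come without the shares over all genes, apart from those given above. They show how the calls depend on the processing and not how the decay genes differ from other genes. Library sizes without TMM factors moved most counts of decay genes. For MIX versus GV they gave 0 upregulated DEGs, 12 downregulated DEGs and 12 genes higher at FDR < 0.01. For MII versus GV they gave 1 and 12 DEGs and for ‘damaged’ versus GV 0 and 11, and for the other decay factors 13 downregulated DEGs, 2 genes higher and 27 lower. On this scale *CNOT6L* (-0.15) and *PAN3* (-0.19) turned sign. A filter of 10 CPM left 2 upregulated DEGs in MII, 1 in ‘damaged’ oocytes and 6 other decay factors higher, and counts summed per gene left 2 upregulated DEGs in MII. The cause was not tested. Leaving out 1 library at a time gave 3 to 4 upregulated and 7 downregulated DEGs for MIX versus GV, 3 to 4 and 7 for MII, 3 to 5 and 6 to 7 for ‘damaged’ oocytes, 27 to 30 genes higher and 15 to 17 lower, 0 to 1 and 7 to 8 DEGs among the other decay factors, and 23 to 34 transcripts called. In the 8 libraries with an undisputed gene column, chosen after seeing the data, 4 genes were upregulated and 7 downregulated DEGs, and 23 rose and 12 fell. Oocytes were collected on separate occasions for all groups, but no source ties a replicate number to an occasion, so that the fit without a block was kept. Of 13 same-number pairs, 3 had deviations correlated over 0.1 (median r 0.07), while 9 of 14 libraries correlated best with their own number, a hint of pairing from the data. With the replicate block, 3 and 7 DEGs, 28 genes higher and 16 lower were called for MIX versus GV, 0 for MII versus ‘damaged’, where the smallest FDR over all genes went from 1.00 to 0.0232, and 33 transcripts with diffSplice. For the 28 named genes only, 632 of 639 values over the alternatives kept direction and the call at FDR < 0.01. Most of these alternatives only left out 1 library. The size limit for DEGs was not part of this count. On library sizes *BTG4*, *DCP2* and *XRN1* still rose but were no longer DEGs. Over all 55 genes tested, library sizes ended 16 of 28 rises and turned the sign of 7, and the 8 libraries left 35 of 44 calls. No call was made between MII and ‘damaged’ oocytes among the decay genes under any alternative run. Low counts limit *EXOSC2*, *EXOSC4* and *EXOSC6* in cultured oocytes, where they were at most 31.8.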

Other observations

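The GV library left out lay within the range of the other GV libraries in 17 of the 55 decay genes tested, outside it between the GV and MIX means in 11, and outside both the range and that interval in 27. MIX and GV libraries did not overlap in 37 of the 55 genes without it and in 35 with it. Without it, MIX lay fully above GV in 24.3% of all genes and fully below in 29.4%, and the shares with it were not computed. Of the libraries used, GV replicate 1 was the highest GV library in 26 of the 55 genes and MII replicate 3 the highest MII library in 23.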
